A study of Mus musculus with 12 samples.

Results

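The genes described here form the interferon-gamma, Xcl1 and dendritic cell recruitment axis, 8 of the 31053 genes measured, which were looked up by symbol: the ligands Ifng, Xcl1, Ccl5 and Flt3l, and the receptor genes Ifngr1, Ifngr2, Xcr1 and Flt3. All 8 had UMIs (unique molecular identifiers, each standing for 1 captured RNA molecule). CD45+ cells were isolated with microbeads from MC38 tumors, a mouse colon carcinoma line grown under the skin of C57BL/6 mice, and profiled by droplet single-cell RNA sequencing. The 12 samples were 3 each of 4 groups: vehicle or the EZH2 inhibitor PF-06821497 at 100 mg/kg by daily subcutaneous injection, given for 16 days from day 1 or for 7 days from day 10 after implantation, with harvest on day 17 in all of them. All groups carried the same tumor line. The beads were chosen for CD45, and tumor and stromal cells are not described here. The deposited matrix numbers its 12 libraries from 1 to 12 without saying which sample each one is, and no group was inferred from cell totals or from the order of the libraries. So no value below is assigned to a treatment, and no test between treatments, p-value or standard error is given. The libraries are named by number, and every range runs over libraries.

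Interferon-gamma is made mainly by activated T cells and NK cells and acts through a receptor of a binding chain, IFNGR1, and a signalling chain, IFNGR2, which together engage the kinases JAK1 and JAK2. XCL1 is a chemokine of activated CD8+ T cells and NK cells whose receptor, XCR1, marks the cross-presenting conventional dendritic cells called cDC1. FLT3 ligand drives dendritic cell development and survival through the receptor tyrosine kinase FLT3, and CCL5 attracts T cells, monocytes and dendritic cells through chemokine receptors that include CCR1 and CCR3.

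Libraries 1 to 6 and 7 to 12 stood apart. Y-linked genes summed to between 127.8 and 209.4 CPM (UMIs of a gene per 1000000 UMIs) in libraries 1 to 6 and to 0 in libraries 7 to 12, although the study's methods name female mice only. Whether this split runs along the study's groups is not given by the labels. Library depth ran from a median of 2291 UMIs per cell kept in library 6 to 15081 in library 12. Of the barcode sequences, 2261 occurred in more than 1 library. Library 4 held 9 CD8 T, 3 CD4 T and 1 NK cell and therefore gave no value for these cells. In all, 128912 of 140639 barcodes passed the quality limits, and they were sorted into gates by UMIs of lineage genes other than the 8 members. The gates held 3472 CD8 T, 725 CD4 T and 186 NK cells as candidate sources, and 633 cDC1 (set by Clec9a with Naaa, Wdfy4 and Irf8), 755 mature dendritic cells (Ccr7 with Fscn1), 204 Cd209a dendritic cells, 181 plasmacytoid dendritic cells (pDC), 65312 macrophages and 2487 monocytes as candidate receivers. Levels are CPM of the UMIs summed over a gate in a library with at least 20 such cells. Because the libraries capture the 3′ end of RNA, no correction for length was made and levels are compared between cells, not between genes.

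The gates were checked with marker genes that they did not use, and no defining marker was at 0 over its own gate. The 4 CD8 T markers summed to a median of 2550.4 CPM in CD8 T cells and, led by Nkg7, to 1879 CPM in CD4 T cells, above the 1141 CPM of the 4 CD4 T markers there. In the pDC gate monocyte markers, at 4801 CPM and led by Plac8 with 4409 CPM, were above its own at 4338 CPM. The 5 shared T cell markers summed to between 1390 and 3619 CPM in CD8 T cells, with a median of 2437, and to a median of 3.12 CPM in cDC1 and 9.27 CPM in mature dendritic cells. In the NK gate, which allows no Cd3 UMI, they summed to 802 and 1022 CPM. The 6 cDC1 markers had a median sum of 95.9 CPM in CD8 T cells. The 3 markers of Cd209a dendritic cells, which include the MHC class II chain gene Cd74, summed to a median of 1477 CPM in CD8 T cells and 3877 CPM in CD4 T cells, the latter above the T cell markers of that gate at 2269 CPM, and Cd74 alone had medians of 1428 and 3776 CPM. The part of these transcripts in the member values of the T and NK gates was not tested. The 6 macrophage markers summed to a median of 560 CPM in CD8 T cells, within a range of 357 to 4235, and of 796 CPM in CD4 T cells, against 22598 CPM in macrophages. In monocytes their median was 5785 CPM, against 6009 CPM for its own markers. In cDC1 it was 511 CPM, with a high of 4507, and in mature dendritic cells 479 CPM, with a high of 4493. In Cd209a dendritic cells it was 2364 CPM, with a high of 7994, and in pDC 2929 CPM, with a high of 10607. Markers of Cd209a dendritic cells were above the gate's own in cDC1 (13955 against 1548 CPM), mature dendritic cells (4197 against 4154 CPM) and monocytes (7240 CPM). The part of these transcripts in the member values of these gates was not tested. A further 3425 barcodes met the T cell limit but also held Csf1r or Adgre1 UMIs, and these were kept out of the T cell gates. Only 17 of the 725 CD4 T cells had a Foxp3 UMI, so regulatory T cells are not described.

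In the GRCm38 build of the mouse genome, Ifng (ENSMUSG00000055170) lies on chr10:118441046-118445892 on the plus strand and Xcl1 (ENSMUSG00000026573) on chr1:164931644-164935527 on the minus strand. Ifngr1 (ENSMUSG00000020009) is at chr10:19591949-19610229, Ifngr2 (ENSMUSG00000022965) at chr16:91547072-91565623, Xcr1 (ENSMUSG00000060509) at chr9:123852315-123862029, Flt3 (ENSMUSG00000042817) at chr5:147330741-147400489, Flt3l (ENSMUSG00000110206) at chr7:45129788-45136432 and Ccl5 (ENSMUSG00000035042) at chr11:83525778-83530518. All are protein-coding genes. Ifng overlaps Gm49751 and Flt3l overlaps Gm45713 on the same strand, and how reads in these overlaps were counted is not given in the sources used here. Xcl1 and Flt3 each overlap a gene on the other strand, Gm20743 and Gm26597. The 250 bases before the start sites of the T and NK cell ligands Ifng and Xcl1 are shown because these genes had the most restricted sources of the 4 ligands, with 7 of the 8 members having a RefSeq promoter entry (GRCm38.p6) and Ccl5 none. The Ifng bases are chr10:118440796-118441045 on the plus strand and the Xcl1 bases chr1:164935523-164935772 on the minus strand, each written 5′ to 3′ along its gene. The RefSeq start of Xcl1 differs from the gene end given above, so the last bases of its window lie inside those coordinates. Capitals mark matches on either strand to the letters TCACACC (a T-box motif), TTTCC (the NFAT core) and TATAAA (the TATA box).
Ifng: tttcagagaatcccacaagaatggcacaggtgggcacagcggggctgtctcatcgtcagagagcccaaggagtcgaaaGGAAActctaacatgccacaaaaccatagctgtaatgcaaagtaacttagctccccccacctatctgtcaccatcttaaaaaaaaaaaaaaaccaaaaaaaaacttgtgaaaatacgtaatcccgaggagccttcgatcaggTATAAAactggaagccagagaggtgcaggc
Xcl1: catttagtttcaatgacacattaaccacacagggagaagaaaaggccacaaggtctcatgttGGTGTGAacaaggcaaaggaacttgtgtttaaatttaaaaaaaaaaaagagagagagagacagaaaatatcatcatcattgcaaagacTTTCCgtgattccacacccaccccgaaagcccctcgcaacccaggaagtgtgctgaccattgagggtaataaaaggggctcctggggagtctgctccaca
The Ifng window held the NFAT core 172 bases and the TATA box 30 bases before the start. The Xcl1 window held the T-box motif 188 bases and the NFAT core 100 bases before the start. The fourth motif searched, TGANTCA of AP-1, was in neither window. Of 32851 RefSeq promoters of this length, 3.33% held the T-box motif, 6.75% the AP-1 motif, 55.6% the NFAT core and 12.4% the TATA box, so the NFAT core is a common match. The 4 motifs do not overlap one another in these windows.

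Ifng was a transcript of T cells. In CD8 T cells it ranged over 11 libraries from 22.6 CPM in library 10 to 192.8 CPM in library 1, with a median of 64.8 CPM. In CD4 T cells it ranged over 9 libraries from 25.01 CPM in library 2 to 358 CPM in library 11, with a median of 111 CPM. The 2 ranges overlapped over most of their length. CD8 T cells were higher than CD4 T cells in 4 libraries and lower in 5, with a median log2 ratio of -0.48, where 3.32% of 7767 genes were higher and 5.24% lower in all 9 libraries. Here and below a ratio is log2 of CPM with 1 CPM added, which understates the ratios of low genes. Without the single cell richest in Ifng in each gate and library, CD8 T cells were higher in 5 of 9 and the median ratio was 0.20, so no order of CD8 and CD4 T cells held.

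An Ifng UMI was found in 13.7% of CD8 T cells (95% exact interval 12.5 to 14.8), in 17.0% of CD4 T cells and in 6.99% of NK cells. In the 2 libraries with enough NK cells, Ifng was at 10.5 CPM in library 5 and 94.4 CPM in library 7, below CD8 T cells in both, where 34.2% of genes were. Monocytes of library 5 had 14.8 CPM from 4 UMIs, above its NK cells. These intervals, and the limits given for counts of 0, cover counting error only. The share in macrophages was 0.103%, although their median of 7059 UMIs per cell was above the 3210 of CD8 T cells. When each cell was thinned to 1000 UMIs, 5.42% of CD8 T cells and 6.52% of CD4 T cells held one. Macrophages had a median of 0.0781 CPM, and CD8 T cells were above them in 11 of 11 libraries, where 24.1% of genes were higher in all. Mature dendritic cells had 0 Ifng UMIs in 755 cells, which allows up to 0.397% of cells with a UMI by the limit of 3 counts and 0.487% by the exact interval. The message was concentrated: 474 CD8 T cells had an Ifng UMI, and 42 cells, 1.21% of the gate, held 50% of its 1268 UMIs. The richest cell alone held 114.

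**Figure D1:**
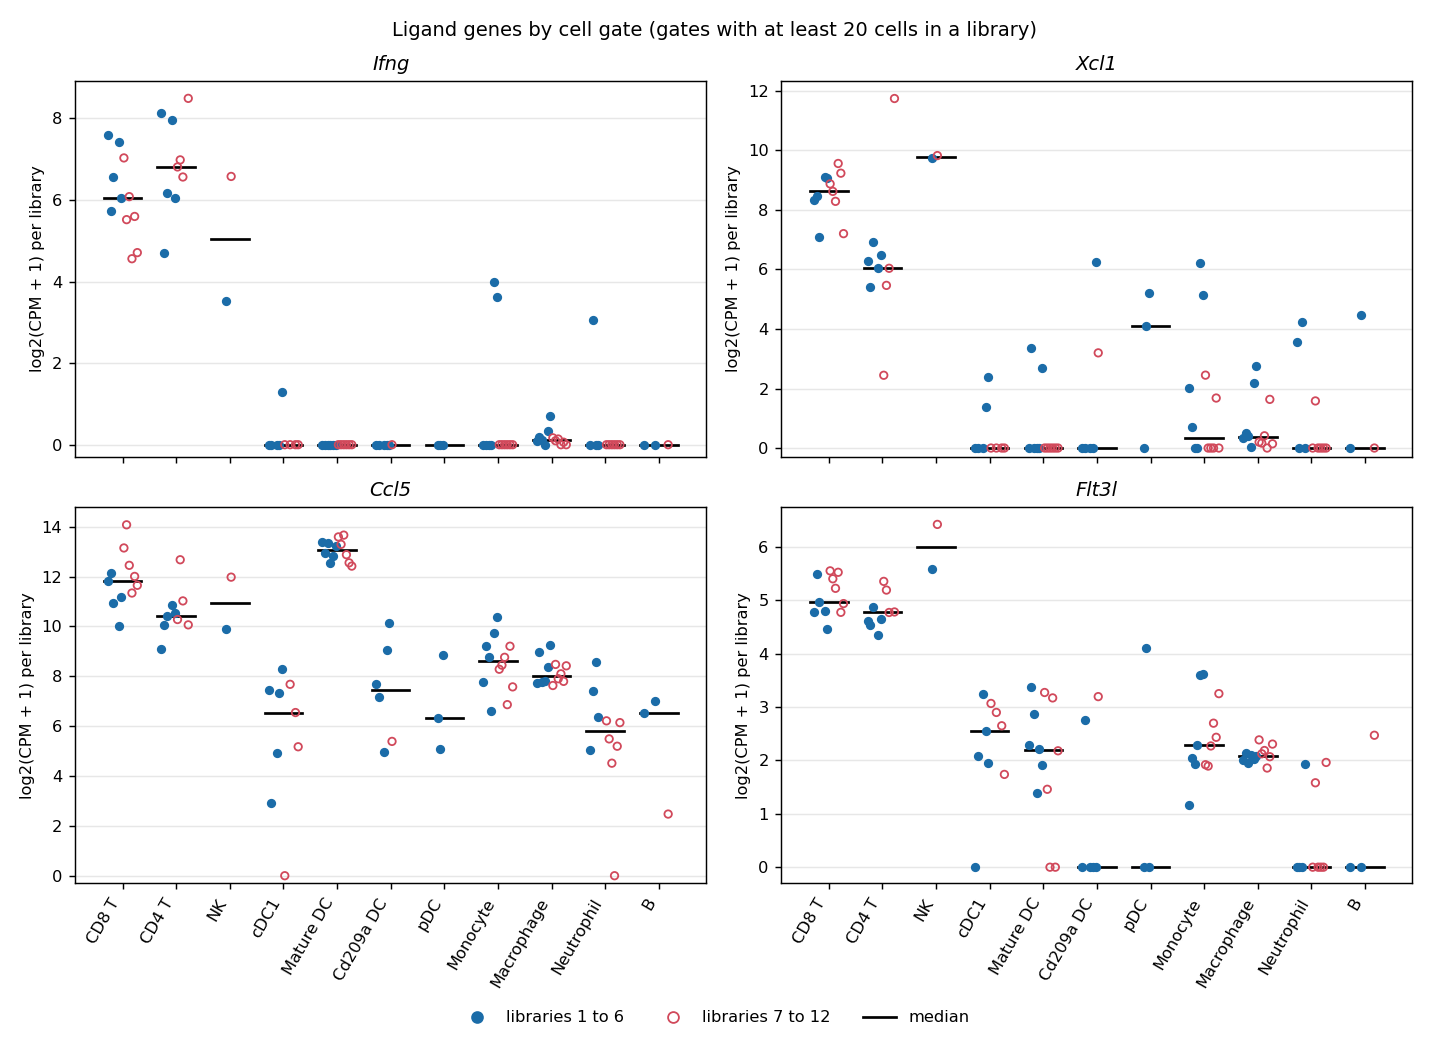
Levels of the 4 ligand genes by gate, as log2 of CPM with 1 added, with 1 point per library of at least 20 cells in the gate (filled, libraries 1 to 6; open, libraries 7 to 12) and a bar at the median. Median Ifng and Xcl1 levels were high in the T and NK gates and low in the myeloid gates, where single points such as Xcl1 in monocytes of library 5 (74.1 CPM) and in Cd209a dendritic cells of library 6 (74.2 CPM) stood above the rest, whereas Ccl5 was highest in mature dendritic cells, with a median of 8721 CPM.

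Xcl1, the XCR1 ligand, was a transcript of CD8 T and NK cells. In CD8 T cells it ranged from 134.9 CPM in library 3 to 754 CPM in library 10, with a median of 393 CPM over 11 libraries. Only 2 libraries had 20 or more NK cells, and they gave 865 CPM in library 5 and 906 CPM in library 7. NK cells were above CD8 T cells in both, with a median log2 ratio of 0.80, but 23.2% of 8137 genes were also higher in NK cells in both. A gate that also accepted Klre1, chosen after the data were seen, reached 20 NK cells in 5 libraries, with 311 cells in these. NK cells there had between 896 and 1593 CPM and were above CD8 T cells in 5 of 5. The share of all genes with this order was not computed for that gate. In the opposite direction, a gate asking for 3 NK UMIs left 1 library, with 532 CPM and a log2 ratio of -0.04. The order of NK over CD8 T cells therefore depended on how NK cells were gated. NK cells were above CD4 T cells in both libraries too, by a median log2 ratio of 5.55, where 24.6% of 8353 genes were higher in both.

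In CD4 T cells Xcl1 ranged from 4.44 CPM in library 7 to 3426 CPM in library 11, with a median of 64.8 CPM. The highest value came from a single cell, which held 499 of the 516 UMIs, and library 11 without it was at 127.8 CPM. CD8 T cells were higher than CD4 T cells in 8 of 9 libraries, all but library 11, with a median log2 ratio of 2.59. They were higher in 9 of 9 once the richest cell of each gate and library was left out. With all cells kept, 3.32% of 7767 genes were higher in CD8 T cells in all 9 libraries. That share was not computed without the richest cells. An Xcl1 UMI was in 25.9% of CD8 T cells and 66.1% of NK cells, and in 14.6% and 45.3% after thinning to 1000 UMIs, against 5.52% of CD4 T cells unthinned and 3.04% thinned. Macrophages had one in 0.490% of cells, and mature dendritic cells in 3 of 755. As with Ifng, few cells carried the message: 50 of 3472 CD8 T cells held 50% of the 6012 Xcl1 UMIs, and a single cell of library 8 held 697 of them.

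Within CD8 T cells, Ifng and Xcl1 were higher in cells with Havcr2, the gene of the inhibitory receptor TIM-3 of activated and exhausted cells, than in cells with Tcf7, which encodes the TCF-1 factor of naive, memory and progenitor cells. Both classes left out cycling cells, and 398 and 265 cells met them. The 3 libraries with at least 20 cells of each were libraries 2, 5 and 8. For Xcl1 the Havcr2+ cells had 632, 419 and 2110 CPM and the Tcf7+ cells 112.8, 79.4 and 42.1 CPM in these libraries. The values of these classes did not overlap across libraries, and the share of genes without overlap was not computed. Within libraries the Havcr2+ cells were higher in 3 of 3 by a median log2 ratio of 2.48, and 18.6% of 7863 genes were higher in all 3. In library 8, 697 of the 786 Xcl1 UMIs of Havcr2+ cells sat in 1 cell. Without the richest cells the Havcr2+ values were 265, 351 and 249 CPM, still above those of Tcf7+ cells. Havcr2 is also expressed by dendritic cells, and the marker lists of antigen-presenting cells did not all move the same way with this class. The 3 markers of Cd209a dendritic cells, Mgl2, Cd74 and Clec10a, summed to 1798, 3571 and 204 CPM in Havcr2+ cells and to 308, 2086 and 171 CPM in Tcf7+ cells in libraries 2, 5 and 8, higher in 3 of 3. The 6 macrophage markers were higher in Havcr2+ cells in library 5 alone, with 974, 1995 and 754 CPM against 1346, 1519 and 856 CPM. The cDC1 markers were higher in libraries 2 and 5 and lower in library 8, with 76.9, 273 and 40.3 against 37.6, 124.7 and 75.8 CPM. Mature dendritic cell markers were higher in library 2 alone, with 209, 430 and 96.6 against 180, 703 and 160 CPM. The part of such transcripts in the order of Xcl1 and Ifng was not tested.

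For Ifng the Havcr2+ cells had 132.4, 451 and 72.5 CPM and the Tcf7+ cells 60.2, 11.3 and 56.1 CPM in libraries 2, 5 and 8. The Havcr2+ cells were higher in 3 of 3 with a median log2 ratio of 1.12, where 18.6% of genes were. Without the richest cells they were higher in only 2 of 3, since library 8 then had 41.9 against 42.8 CPM. Flt3l ran the other way, with 25.6, 17.4 and 26.8 CPM in Havcr2+ and 82.7, 22.7 and 58.9 CPM in Tcf7+ cells, lower in 3 of 3 where 15.2% of genes were. These Flt3l values rest on 2 to 21 UMIs each. Ccl5 had no fixed order, being lower in Havcr2+ cells in 2 of 3. Between cycling cells (Mki67 or Top2a) and Havcr2+ cells, Ccl5 was lower in the cycling cells in 8 of 8 libraries, with a median log2 ratio of -1.03, where 2.45% of 7711 genes were. Xcl1 was higher in the cycling cells in 5 of 8 and Ifng in 2 of 8, and 8.74% of genes were higher in all 8.

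**Figure D2:**
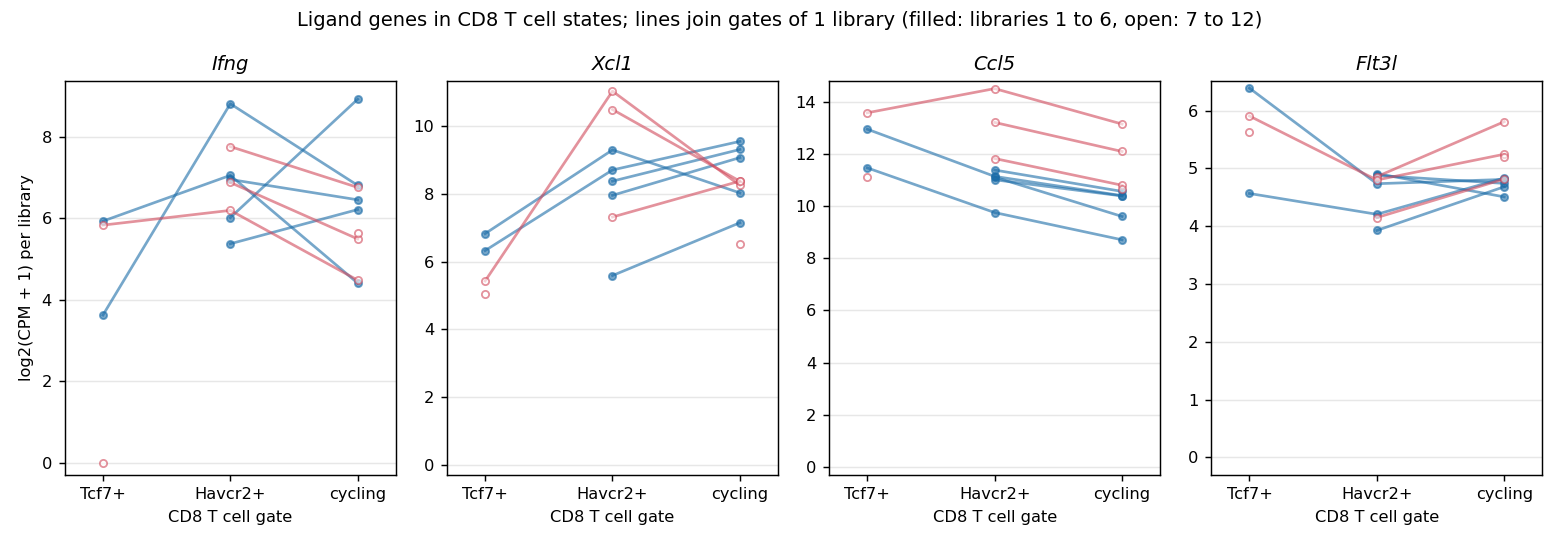
Ifng, Xcl1, Ccl5 and Flt3l in Tcf7+, Havcr2+ and cycling CD8 T cells, as log2 of CPM with 1 added, with 1 point per library of at least 20 cells (filled, libraries 1 to 6; open, libraries 7 to 12) and lines that join the points of a library. Over all their libraries Xcl1 had medians of 60.7 CPM in Tcf7+, 376 CPM in Havcr2+ and 332 CPM in cycling cells, with wide spread in the Havcr2+ cells.

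Cells with an Ifng UMI more often had an Xcl1 UMI as well. After thinning to 1000 UMIs, in a random draw separate from that of the shares above, 24.7% of 178 CD8 T cells with Ifng had Xcl1 (exact interval 18.6 to 31.7) against 14.1% of 3090 cells without (12.9 to 15.4). The share was higher among the cells with Ifng in 7 of the 9 libraries that had at least 5 such cells, and the exceptions were libraries 3 and 11, with 9.09% against 9.27% and 0% of 5 cells against 8.93%. Most CD8 T cells with an Ifng UMI, even so, had no Xcl1 UMI at this depth. Among CD4 T cells the shares were 9.30% of 43 cells and 2.32% of 647 cells, higher among the cells with Ifng in 3 of 5 libraries and, thinned to 500 UMIs, in 0 of 2. The NK gate had 4 cells with Ifng in this draw, too few to describe.

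Ccl5 was highest, by median, in mature dendritic cells, the Ccr7+ Fscn1+ state that migrates to lymph nodes. There it ranged from 5479 CPM in library 12 to 12971 CPM in library 9, with a median of 8721 CPM over 12 libraries, and 94.0% of cells had a UMI. In cDC1 it ranged from 0 in library 7 to 310.1 CPM in library 6, with a median of 92.4 CPM. The ranges did not overlap, and the share of genes without overlap was not computed. Within libraries the mature dendritic cells were higher in 9 of 9 by a median log2 ratio of 6.01, and 14.3% of 7398 genes were higher in all 9. cDC1 were below monocytes in 9 of 9, where 17.4% of genes were. Mature dendritic cells were also above macrophages in 12 of 12, with a median log2 ratio of 4.77, where 13.6% of genes were.

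CD8 T cells had from 1026 CPM of Ccl5 in library 5 to 17277 CPM in library 8, with a median of 3627 CPM, and 75.8% had a UMI. Mature dendritic cells were higher in 10 of 11 libraries, all but library 8, with a median log2 ratio of 1.21 (12.6% of genes were higher in all 11). CD4 T cells ranged from 548 to 6539 CPM with a median of 1350 CPM, and CD8 T cells were above them in 8 of 9 libraries. NK cells had 954 and 4031 CPM. Macrophages ranged from 197.1 CPM in library 7 to 610 CPM in library 6, with a median of 256 CPM, monocytes had a median of 389.9 CPM, and the T and NK ranges lay above the macrophage range except for the lowest CD4 T library. CD8 T cells were above macrophages within 11 of 11 libraries, where 24.1% of genes were. Unlike Ifng and Xcl1, Ccl5 was spread over many cells, and 249 CD8 T cells, 7.17% of the gate, held 50% of its UMIs. This pooled count leans on library 8, whose 396 of the 3472 CD8 T cells held 45897 of the 87577 UMIs.

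Ccr1, which encodes a receptor of CCL5, was high in other cells than the highest source of Ccl5. It was highest in neutrophils, with a median level of 1363 CPM over 10 libraries, and had 443 CPM in monocytes and 257 CPM in macrophages, against 9.50 CPM in mature dendritic cells and 20.8 CPM in CD8 T cells. It was higher in monocytes than in macrophages in 12 of 12 libraries, where 10.3% of 7546 genes were. Ccr3, another receptor gene, was near 0, with medians of 0.299 CPM in macrophages and 0 CPM in monocytes and mature dendritic cells. Ccr1 was lower in mature dendritic cells than in macrophages in 12 of 12 libraries, where 26.6% of genes were.

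Flt3l was low everywhere and was highest in T and NK cells. It ranged in CD8 T cells from 21.1 CPM in library 6 to 46.0 CPM in library 7, with a median of 30.5 CPM, and in CD4 T cells from 19.4 CPM in library 5 to just under 40 CPM in library 7. NK cells had 47.2 CPM in library 5 and 85.0 CPM in library 7, from 9 UMIs each. They were above CD8 T cells in both, where 23.2% of 8137 genes were. With the Klre1 gate they were above in 5 of 5 libraries, on 2 to 19 UMIs per library, and the share of all genes was not computed. CD8 and CD4 T cells overlapped, the CD8 T cells being higher in 7 of 9 libraries by a median log2 ratio of 0.20. Macrophages ranged from 2.63 to 4.23 CPM with a median of 3.26 CPM, below CD8 T cells in 11 of 11 libraries by a median log2 ratio of 3.03. Of all genes tested, 24.1% were higher in CD8 T cells in all 11. A Flt3l UMI was in 12.1% of CD8 T cells and 2.70% of macrophages.

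The share of all UMIs of a ligand that came from a gate depends on the level per cell and on how many cells the gate held. Barcodes with at least 2 Cd3 UMIs, 7.66% of all cells kept, held 85.9% of the 3615 Ifng UMIs and 69.9% of the 15203 Xcl1 UMIs. Their share of Ifng ran from 68.2% in library 6 to 97.7% in library 9, and their share of Xcl1 from 28.9% in library 12 to 96.5% in library 8. Barcodes with a Cd3 UMI but fewer than 2, 3.29% of the cells, held a further 4.37% of Ifng and 4.33% of Xcl1. The highs were 16.4% and 11.3% in library 6. The CD8 T gate held 35.1% of Ifng and 39.5% of Xcl1, the CD4 T gate 12.5% and 4.50%, and the T cell barcodes with myeloid UMIs 24.3% and 17.4%. NK cells held 0.775% of Ifng and 7.29% of Xcl1, the latter reaching 56.0% in library 12, where 8 NK cells held 227 of 405 UMIs.

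Ccl5 and Flt3l came from more gates. Macrophages held 35.8% of the 480625 Ccl5 UMIs, from 16.8% to 63.8% by library, and 45.6% of the 3989 Flt3l UMIs, while making up 50.7% of the cells. Mature dendritic cells, 0.586% of the cells, held 6.14% of Ccl5, with a low of 3.79% in library 6 and a high of 20.01% in library 4. The CD8 T gate held 18.2% of Ccl5 and 11.96% of Flt3l. Its share of Ccl5 ran from 0.187% in library 4, with 9 such cells, to 38.0% in library 8. Barcodes of no gate held 6.61% of Ifng, 13.1% of Xcl1, 15.4% of Ccl5 and 17.4% of Flt3l UMIs.

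**Figure D3:**
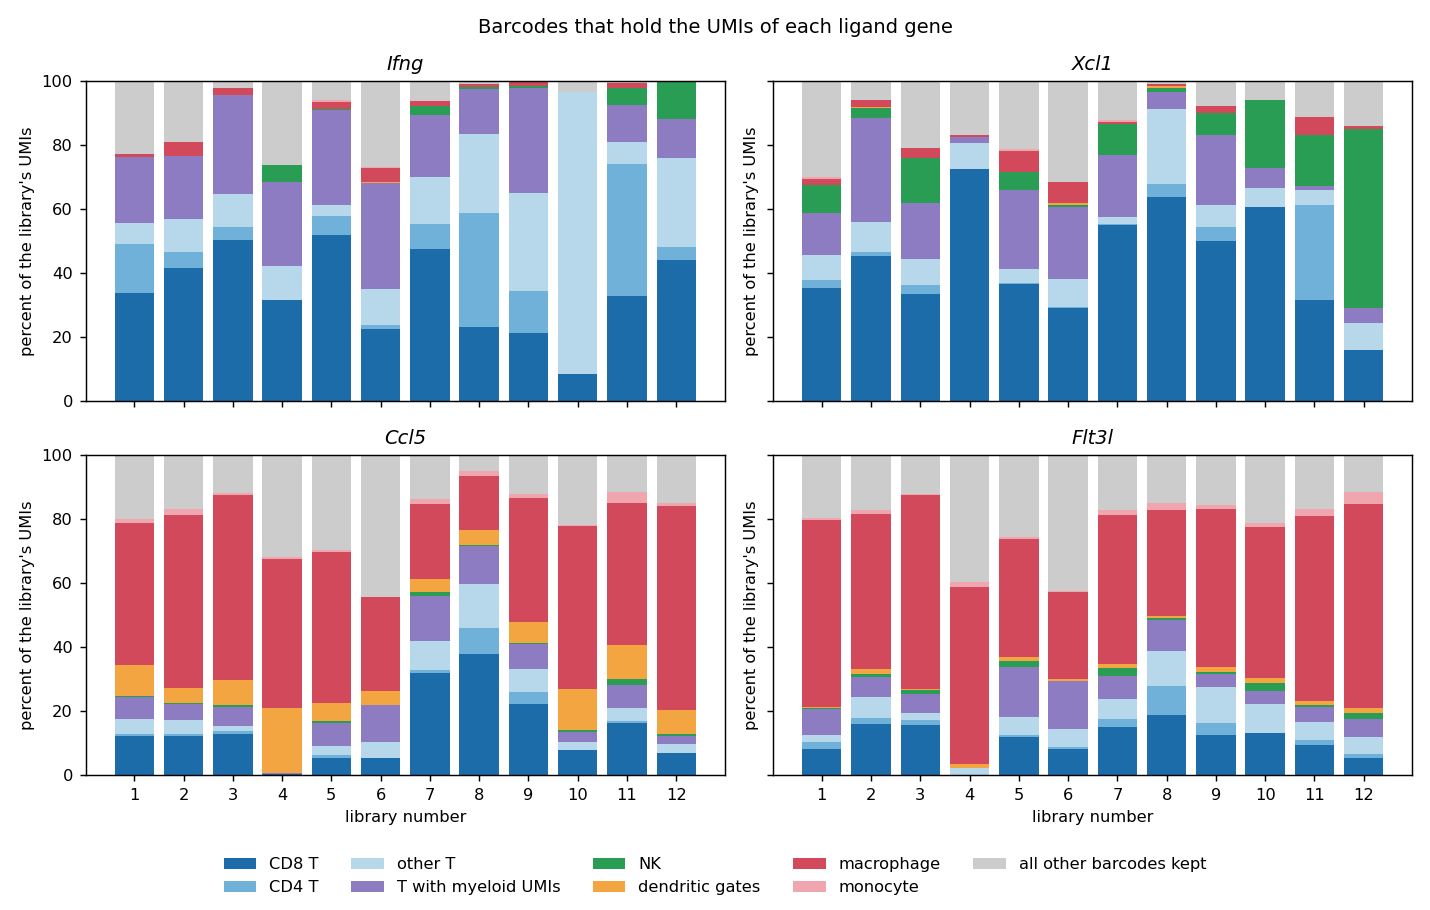
Share of each ligand's UMIs by class of barcode, in percent, with 1 stacked bar per library and ligand. Classes with at least 2 Cd3 UMIs fill most of the Ifng bars (median 90.1% over libraries) and the Xcl1 bars (70.0%), and macrophages the largest pooled share of the Ccl5 and Flt3l bars.

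Xcr1 was found in cDC1, as its name as a marker implies, without having been used by the gate. It ranged from 276 CPM in library 4 to 647 CPM in library 7, with a median of 424.5 CPM over 9 libraries, and 70.0% of cDC1 had a UMI. Macrophages had a median of 0.866 CPM, monocytes of 0 CPM and mature dendritic cells of 5.84 CPM, with a highest library of 31.6 CPM. cDC1 were higher than macrophages in 9 of 9 libraries by a median log2 ratio of 7.83 (12.3% of 7739 genes were higher in all 9), and than monocytes in 9 of 9 by 8.70 (13.1% of 7485 genes). Mature dendritic cells were lower than cDC1 in 9 of 9 with a median log2 ratio of -6.61, where 16.9% of genes were lower in all 9. There were 0 Xcr1 UMIs in 204 Cd209a dendritic cells, whose gate leaves out barcodes with a Clec9a UMI.

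Xcr1 UMIs were also found among T cells, with medians of 9.03 CPM in CD8 T and 7.07 CPM in CD4 T cells. These UMIs sat in 86 of the 4197 T cells. Of these, 54.7% had a Clec9a UMI, 79.1% a Naaa UMI and 45.3% an Flt3 UMI, against 0.389%, 7.05% and 1.19% of the other 4111 T cells, and their median depth was 6346 against 3215 UMIs. The T cell barcodes with Xcr1 thus also held other genes of the cDC1 gate, and the part of such barcodes in the T cell values was not tested.

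The cDC1 identity genes were read the same way. Irf8 and Wdfy4 of this list of 8 belong to the gate itself and were left out. Of the other 6, 5 were higher in cDC1 than in macrophages in 9 of 9 libraries, all but Id2, where 12.3% of genes were. The median log2 ratio of the 6 was 2.60 against -0.13 over all genes tested. These 5 are also among the 6 cDC1 markers of the gate check above and repeat it, whereas Id2 is not. Batf3, the partner factor of IRF8, had a median of 145.0 CPM in cDC1 and 37.4 CPM in macrophages, Itgae (CD103) 383 and 1.49 CPM, and Tlr3, a sensor of double-stranded RNA, 213 and 21.1 CPM. In mature dendritic cells Tlr3 had a median of 0 CPM and Itgae of 6.70 CPM, while Batf3 had 298 CPM and Zbtb46, a factor of conventional dendritic cells, 77.5 CPM against 22.2 CPM in cDC1. Against cDC1, 3 of the 6 were higher and 3 lower in mature dendritic cells in all 9 libraries, where 14.3% and 16.9% of genes were.

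Flt3 was shared by all dendritic gates. It ranged from 61.4 CPM in library 6 to 174.0 CPM in library 2 in cDC1, with a median of 128.1 CPM, and from 48.1 to 199.9 CPM in mature dendritic cells, with a median of 144.1 CPM. These ranges overlapped throughout, and the mature cells were higher in 5 and lower in 4 of 9 libraries. The pDC, in 3 libraries, lay between 57.6 and 163.3 CPM. Cd209a dendritic cells were lower, between 8.17 and 72.9 CPM with a median of 41.6 CPM. Monocytes had a median of 5.20 CPM and macrophages of 0.668 CPM. cDC1 were above monocytes in 9 of 9 libraries by a median log2 ratio of 4.18, where 13.1% of genes were. Monocytes were above macrophages in 12 of 12 by 1.77, where 10.3% of genes were. CD8 T cells had a median of 7.14 CPM, and among all T cells the 86 with an Xcr1 UMI held 67 Flt3 UMIs and the other 4111 held 70.

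**Figure D4:**
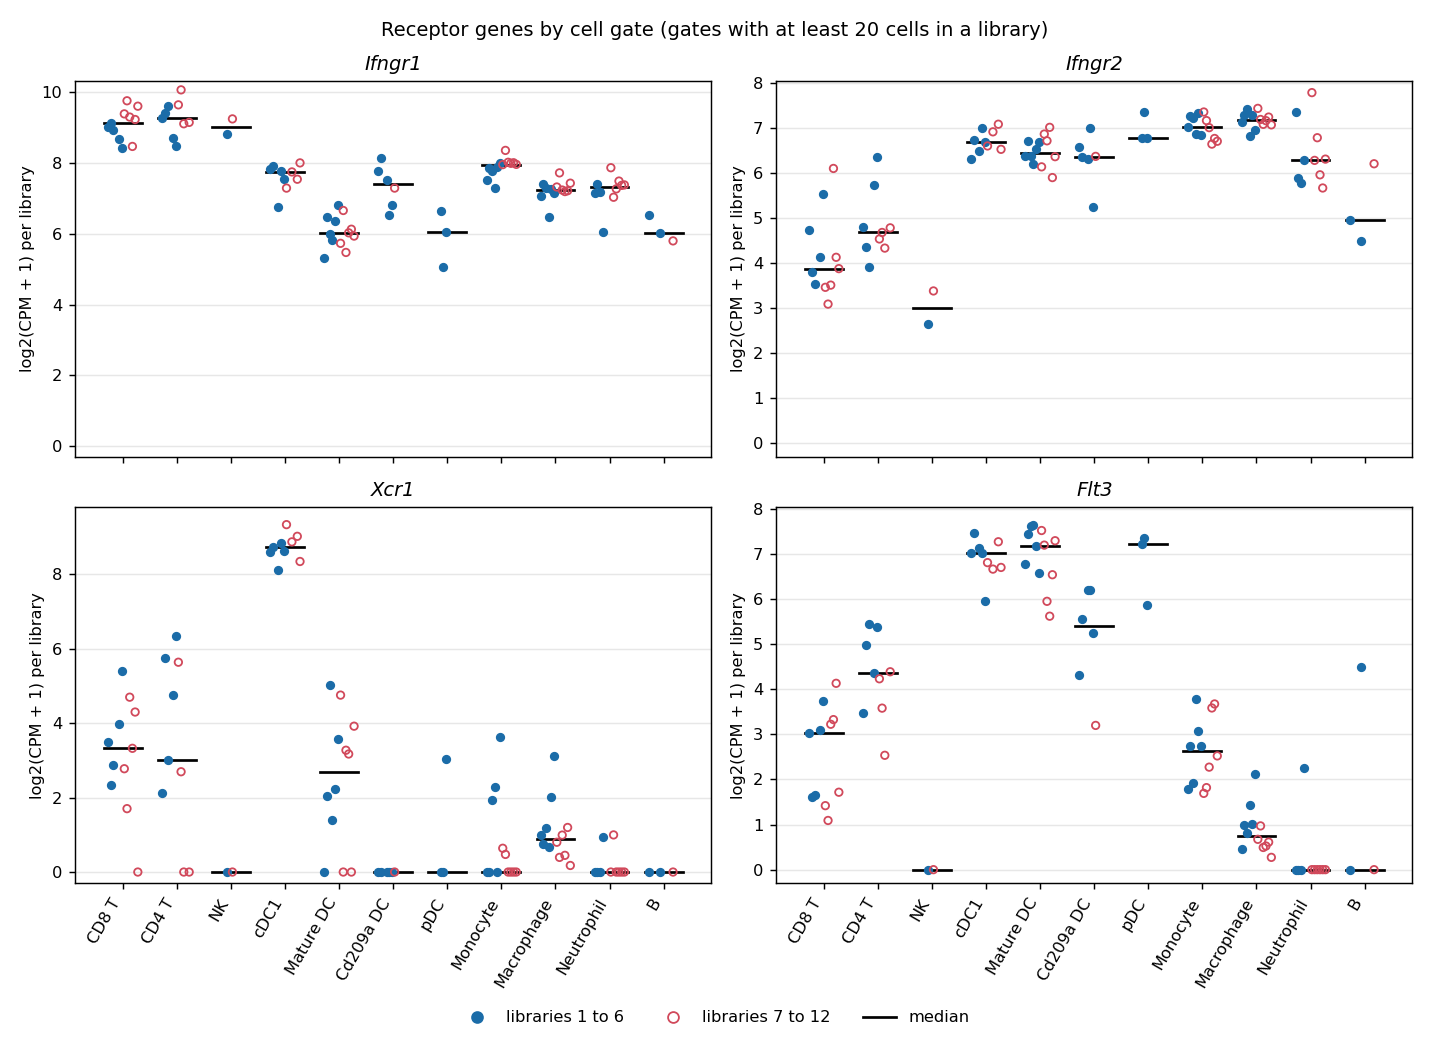
Levels of the 4 receptor genes by gate, as log2 of CPM with 1 added, with 1 point per library of at least 20 cells (filled, libraries 1 to 6; open, libraries 7 to 12) and a bar at the median. Xcr1 was high in cDC1 only among these gates, Flt3 in cDC1, mature dendritic cells and pDC, and Ifngr1 and Ifngr2 had opposite orders in T cells and macrophages.

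The 2 chains of the interferon-gamma receptor had opposite patterns. Ifngr1, the binding chain, was highest in T and NK cells: CD8 T cells ranged from 339 to 862 CPM with a median of 559 CPM, CD4 T cells from 356 to 1067 CPM with a median of 615 CPM, and NK cells had 446 and 604 CPM. Macrophages ranged from 87.6 to 209 CPM with a median of 150.5 CPM. CD8 T cells were higher in 11 of 11 libraries by a median log2 ratio of 1.97, where 24.1% of genes were. They were higher than monocytes in 11 of 11 by 1.28, where 22.6% of genes were. CD8 and CD4 T cells overlapped, CD8 T cells being lower in 7 of 9 libraries. B cells, in 3 libraries, had from 54.6 to 90.6 CPM.

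Among the receivers, monocytes had more Ifngr1 than macrophages in 12 of 12 libraries, with a median of 247 CPM and a log2 ratio of 0.64. Of all genes tested, 10.3% were higher in monocytes in all 12. cDC1 ranged from 106.0 to 255 CPM with a median of 213 CPM, above macrophages in 8 of 9. Mature dendritic cells had the lowest values of the 3, from 39.0 to 110.2 CPM with a median of 63.7 CPM. They were below cDC1 in 9 of 9 with a median log2 ratio of -1.45, where 16.9% of genes were. They were also below macrophages in 12 of 12, where 26.6% of genes were, and below CD8 T cells in 11 of 11, where 21.9% of 7932 genes were. Within CD8 T cells, Havcr2+ cells had less Ifngr1 than Tcf7+ cells in 3 of 3 libraries, where 15.2% of 7863 genes were lower.

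Ifngr2, the signalling chain, was highest in macrophages, from 112.1 to 172.1 CPM with a median of 143.6 CPM, and in monocytes, with a median of 128.6 CPM. These overlapped, and monocytes were lower in 10 of 12, where 16.7% of genes were lower in all 12. cDC1 had a median of 101.5 CPM and were below macrophages in 9 of 9 libraries with a median log2 ratio of -0.33, where 23.1% of genes were lower in all 9. Mature dendritic cells had a median of 86.9 CPM, below macrophages in 12 of 12, where 26.6% of genes were.

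In CD8 T cells Ifngr2 ranged from 7.53 CPM in library 8 to 67.7 CPM in library 10, with a median of 13.7 CPM, and was below macrophages in 11 of 11 libraries with a median log2 ratio of -3.19, where 26.0% of 8246 genes were lower in all 11. CD4 T cells had a median of 24.7 CPM, above CD8 T cells in 9 of 9 libraries, where 5.24% of genes were. Without the richest cell of each gate and library they were above in only 6 of 9. CD8 T cells were also below monocytes in 11 of 11, where 18.0% of 8051 genes were. NK cells had 5.24 and 9.44 CPM, below CD4 T cells in both libraries, where 35.2% of genes were. T cell barcodes with myeloid UMIs, which are outside the T cell gates, had a median of 97.2 CPM, and with those barcodes let into the gate the CD8 T median was 44.0 CPM. The macrophage markers in the T cell gates are given above, and their part in the Ifngr2 values was not tested. An Ifngr2 UMI was in 6.28% of CD8 T cells against 59.8% of macrophages, and in 1.56% against 13.3% after thinning to 1000 UMIs.

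**Figure D5:**
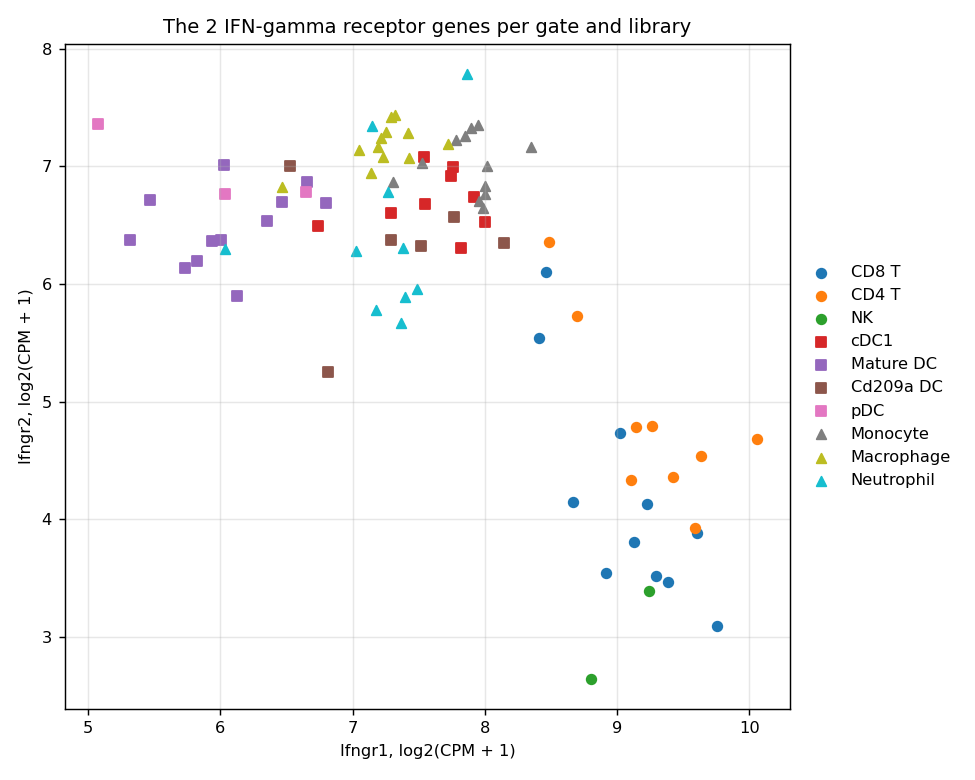
Ifngr1 level (horizontal) against Ifngr2 level (vertical), both as log2 of CPM with 1 added, with 1 point per library and gate for the T, NK, dendritic, monocyte, macrophage and neutrophil gates. T and NK points lie at high Ifngr1 and low Ifngr2 (medians 559 and 13.7 CPM in CD8 T cells), and macrophage points at lower Ifngr1 and high Ifngr2 (150.5 and 143.6 CPM).

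Both chains were rarely seen in 1 cell at equal depth. With each cell thinned to 1000 UMIs, UMIs of both were in 3.65% of monocytes pooled, from 2.06% to 6.25% by library, and in 1.97% of macrophages, from 1.12% to 3.06%. They were in 0.398% of CD8 T cells (exact interval 0.212 to 0.679), 0.954% of cDC1 and 0.410% of mature dendritic cells.

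Downstream of the receptor, the receptor kinase gene Jak2 and Irf1, a transcription factor gene induced by interferon, were higher in monocytes than in macrophages in all 12 libraries, with median log2 ratios of 1.42 and 0.58 against -0.10 over all genes tested, and 10.3% of genes were higher in all 12. Of the other signalling genes described, Jak1 and Socs1 were each higher in 11 of 12 and Socs3 in 8 of 12. In mature dendritic cells Jak1, Jak2 and Irf1 were above cDC1 in all 9 libraries, where 14.3% of genes were, Socs1 in 8 and Socs3 in 7. Jak2 had a median of 408 CPM in mature dendritic cells, 148 CPM in cDC1, 118 CPM in monocytes and 46.5 CPM in macrophages. By median, the mature cells had the lowest Ifngr1 and the highest Jak2 of these 4 gates.

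Of the 12 interferon-gamma target genes, 4 were higher in monocytes than in macrophages in all 12 libraries and 0 lower, where 10.3% of genes were higher and 16.7% lower. These were Ciita, the master regulator of MHC class II genes, and the interferon-inducible GTPases Gbp2, Igtp and Irgm1, and the median log2 ratio of the list was 0.48. Gbp2 had a median of 481 CPM in monocytes and 131.1 CPM in macrophages. Between cDC1 and macrophages 2 were higher, Ciita and the MHC class II gene H2-Ab1, and 6 lower, Cxcl10, Gbp2, Gbp3, Igtp, Iigp1 and Nos2, in all 9 libraries, where 12.3% of genes were higher and 23.1% lower. H2-Ab1 had a median of 8539 CPM in cDC1 and 3085 CPM in macrophages. Ido1 had a median of 0 CPM in cDC1 and of 0.0174 CPM in macrophages. Cxcl9, a T cell attractant, had overlapping ranges, with medians of 454 CPM in cDC1, 414 CPM in macrophages and 409 CPM in monocytes.

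Mature dendritic cells had 2 targets above cDC1 in all 9 libraries, Cd274 (PD-L1) and Gbp2, and 4 below, Cxcl9, Ciita, Irgm1 and H2-Ab1, where 14.3% of genes were above and 16.9% below, so the count above is near that of all genes. Cd274 had a median of 314 CPM there, against 77.9 CPM in cDC1 and 81.7 CPM in macrophages, and Cxcl9 of 48.7 CPM. Against macrophages they had 1 of the 12 higher, Cd274, and 7 lower in all 12 libraries, where 13.6% and 26.6% of genes were.

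Among the 5 cytokines that induce interferon-gamma, Il12b, the shared subunit of IL-12 and IL-23, was highest in mature dendritic cells, from 113.1 to 1549 CPM with a median of 702 CPM, against 58.6 CPM in cDC1 and 4.32 CPM in macrophages. Il12a, the subunit that makes IL-12, had a median of 0 CPM in mature dendritic cells and in cDC1. Il15 had a median of 53.2 CPM in mature dendritic cells and 11.4 CPM in macrophages. Il18 was highest in monocytes at 75.7 CPM, against 35.9 CPM in macrophages and 3.15 CPM in mature dendritic cells.

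On the source side, 5 of the 6 receptor and T-box genes of that pathway were higher in CD8 T cells than in macrophages in all 11 libraries, where 24.1% of genes were, with Tbx21, the T-bet gene, higher in 10 of 11. Tbx21 was also the 1 gene of the 6 above CD4 T cells in 9 of 9 libraries, by a median log2 ratio of 0.90, where 3.32% of genes were. Il18r1, a chain of the IL-18 receptor, had a median of 87.7 CPM in CD8 T cells. Eomes, the partner T-box factor, had a median of 67.7 CPM in CD8 T cells and 149 CPM in NK cells, above CD8 T cells in both NK libraries, as were 23.2% of genes.

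The genes whose levels were most like those of the 4 central members were taken from 9959 genes over 89 gate-by-library sums, as a description, since these sums share libraries and cells. For Ifng they were Cd96 (Spearman rho 0.91), Sytl2, Camk2n1, Ptpn13 and Izumo1r. For Xcl1 they included Trbc2 (0.85), Sh2d2a, Cd96 and Sytl2, so Cd96 and Sytl2 were near both. For Flt3 they were Cbfa2t3 (0.87), Zfp366, Etv3, Syngr2 and Gnb4. For Xcr1 the nearest, Nipsnap1, Ncoa7, Fnbp1, Bcl2l14 and Tjp3, reached only 0.69 to 0.65, and no gene followed Xcr1 across gates as closely as Cd96 followed Ifng.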

How the data were processed

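Per the labels and the file headers, the authors deposited 1 matrix of raw UMI counts, 31053 genes by 140639 barcodes. The matrix header names Cell Ranger 3.0.2, whereas the submitters' processing notes name Cell Ranger 2.1.1, Seurat and the mm10 build. The annotation is not given in the sources used here, and 30934 gene identifiers were found in GENCODE M21.

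The limits of the study were applied (over 200 genes, under 5000 genes, no more than 10% of UMIs mitochondrial), which dropped 11727 barcodes. The study's methods state more cells after its quality control than were kept here, and the cause was not tested. No doublet caller was run, and barcodes meeting several gates (147) were left out. Counts were summed per gate and library to CPM (numpy 2.4.6, scipy 1.17.1, pandas 2.3.3, Python 3.11.15). Shares of cells with a UMI were computed in all cells of a gate and, where stated, in cells thinned to 1000 UMIs, with exact Clopper-Pearson intervals. The thinned shares of the T cell gates covered fewer cells than those gates held. Ratios used a pseudocount of 1 CPM. The background covered genes with a median of at least 10 CPM in either gate. On simulated counts the order count called most genes raised 8-fold and few unchanged genes. Genes as low as several members, or held by as few cells, were not simulated. Since libraries were not tied to samples, EZH2 inhibitor and vehicle were not compared. Named genes were the 8 members, list genes by count and by highest and lowest level, and the 5 nearest genes. Some list and nearest genes are not reported here. Other list genes were named after their values were seen. Members and lists were chosen with earlier results of these data known. Alternatives varied the quality limits, the gates, the minimum of cells, the thinning and the libraries used.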

Additional observations from a re-analysis of the deposited data

How the results depend on the processing

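Over 37 results and 17 alternatives, 468 of 487 values kept their direction and stayed close to the reported value, 15 moved and 4 reversed. No paired analysis was possible because no library was tied to a sample and no result came from a test. The alternatives on libraries 1 to 6 or 7 to 12, on Klre1 and on the richest cell were chosen after seeing the data. The reversals were Ifng in CD8 over CD4 T cells (log2 ratio 0.00038 in libraries 1 to 6 and 0.20 without the richest cells), Flt3 in mature dendritic cells over cDC1 (-0.061 in libraries 7 to 12) and Xcl1 in NK over CD8 T cells (-0.043 with 3 NK UMIs, 1 library). Without the Csf1r and Adgre1 limit, Ifngr2 in CD8 T cells was 44.0 CPM and its ratio to macrophages -1.73, Ifngr1 had a ratio of 1.63, Xcl1 in NK cells was 735 CPM and its ratio to CD8 T cells 1.14. Xcl1 in NK cells was also 532 CPM with 3 NK UMIs, 1050.3 CPM with Klre1 (ratio 1.11) and 801 CPM without the richest cells. A cDC1 gate on Xcr1 and Clec9a, which uses the member itself, gave Xcr1 574 CPM and a Ccl5 ratio of mature dendritic cells to cDC1 of 8.79. With 50 cells per gate and library, the Xcr1 ratio of cDC1 to macrophages was 6.83 in 3 libraries and the Xcl1 ratio of Havcr2+ to Tcf7+ cells 5.61 in 1, as in libraries 7 to 12. Ifngr1 in CD8 T cells over macrophages was 1.63 in libraries 1 to 6. The cause of these shifts was not tested. The NK gate reached 20 cells in 2 libraries, and the Tcf7+ contrast in 3.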
